A study of Mus musculus with 2 samples.

Results

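Mir191, Mir425 and Mir378a were followed through 3 of the 1973 rows of a gene count table for small RNA from mouse embryonic stomach. Mir191 and Mir378a have no row of their own among the genes counted. They were read from Gm24083 and Gm25301, annotated genes of the opposite strand that overlap them. Mir425, the cluster partner of Mir191, has its own row. The 3 rows were taken by symbol. Gm24083 and Gm25301 had been chosen by their opposite-strand counts in these same tables, and Mir425 as the neighbour of Mir191, so the strand split is given as a description without a test. The samples were 2 biological replicates of 1 group: whole stomach of B6NCrl mouse embryos at 14.5 days of development, total RNA, with a size range of less than 30 nt. No sample carried a treatment or a modified allele. The labels name 1 stomach of 1 pup for each replicate but give the sex as pooled male and female, so each library may hold tissue of more than 1 embryo. With 1 group, no comparison between conditions could be made, and the spread between these libraries is the only error available.

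MicroRNAs are cut from hairpin precursors as short RNAs that guide repression of messenger RNAs, mainly through pairing of the seed near their 5′ end. Mir191 and Mir425 are processed from a common transcript, are found in many tissues, and miR-191 is often used as a reference in PCR measurements of microRNA. Mir378a lies within Ppargc1b, the gene of a coactivator of mitochondrial metabolism, and is known from muscle and brown fat, where it acts on energy metabolism.

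The sequences of the chromosome 9 cluster are shown first because they distinguish Mir191 from Mir425. They are RefSeq sequences on GRCm38.p6, and the letters in capitals mark the seed, bases 2 to 8 from the 5′ end. The RefSeq set used had no entry for Mir378a, so no sequence of it is shown.
miR-191-5p: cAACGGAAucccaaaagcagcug
miR-191-3p: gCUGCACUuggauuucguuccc
miR-425-5p: aAUGACACgaucacucccguuga
miR-425-3p: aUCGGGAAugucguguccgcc
These 4 miRNAs have 4 different seeds, although both precursors belong to 1 cluster. Among the 1738 mature sequences of the table, the seeds of miR-191-5p, miR-191-3p and miR-425-3p each occurred once, and that of miR-425-5p occurred 2 times. The other holder of that seed was miR-489-3p, from an intron-borne miRNA of the calcitonin receptor gene Calcr that is known from resting muscle stem cells.
miR-489-3p: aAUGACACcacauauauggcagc
The first 8 bases of miR-425-5p and miR-489-3p are identical. Mir489 had 0 counts in replicate 1 and 1 count in replicate 2, against 7759 and 8494 counts for Mir425.

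The precursors show where the arms lie, with the mature miRNAs in capitals.
Mir191: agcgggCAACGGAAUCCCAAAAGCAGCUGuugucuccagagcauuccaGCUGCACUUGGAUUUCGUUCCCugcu
Mir425: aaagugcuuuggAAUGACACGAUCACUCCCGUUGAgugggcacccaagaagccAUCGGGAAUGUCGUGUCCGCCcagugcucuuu
The Mir191 precursor has 74 nt and lies on chromosome 9 at 108568319 to 108568392, plus strand. The Mir425 precursor has 85 nt and lies at 108568777 to 108568861 on the same strand, 384 bases downstream. The count table adds the arms of a precursor together, so the 5p and 3p miRNAs above could not be separated.

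The row Gm24083 (ENSMUSG00000092915.1) covers 120 bases of the minus strand, from 108568295 to 108568414. It spans the whole Mir191 precursor with 24 bases to spare on one side and 22 on the other, and its transcript contains the reverse complement of that precursor. In GENCODE M21, Mir191 lies in an exon of 1 transcript and in intron 1 of another transcript of the long noncoding gene 4833445I07Rik, and Mir425 lies in an exon of the former transcript. The protein-coding gene Dalrd3 begins 1494 bases downstream of Mir191 in GENCODE, whereas the RefSeq gene of that name (108567484 to 108572773) includes both precursors. The row Gm25301 (ENSMUSG00000093026.1) covers 113 bases of the plus strand of chromosome 18, from 61397813 to 61397925. It spans Mir378a, which has 66 nt and lies on the minus strand at 61397835 to 61397900, in intron 1 of all 3 Ppargc1b transcripts that contain it. Its transcript likewise contains the reverse complement of Mir378a.

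**Figure D1:**
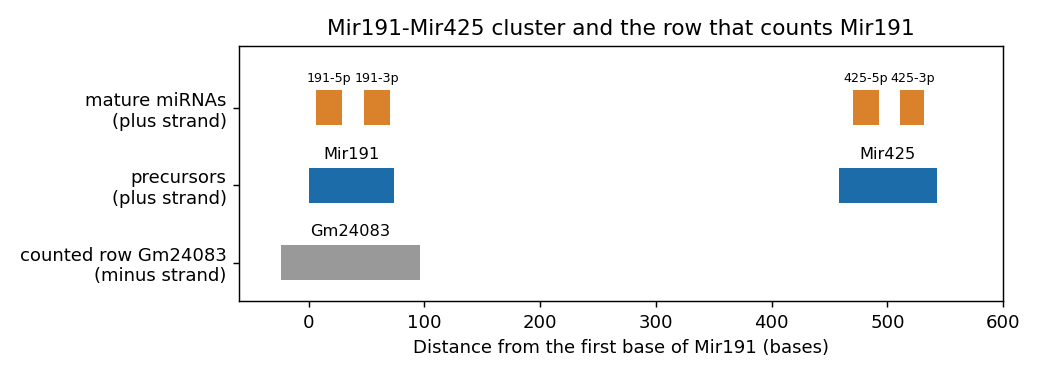
Map of the Mir191-Mir425 cluster, with the distance from the first base of Mir191 in bases on the x axis. Bars show the counted row Gm24083 on the minus strand, the precursors and the mature miRNAs on the plus strand, and both Mir191 arms fall inside the row.

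The library of replicate 1 held 5004548 gene counts and that of replicate 2 held 4679914. Reads that map to several places made up 27.6% ± 0.28 of all reads (SD, n = 2) and belong to no gene. Levels are counts per 1000000 gene counts (CPM), without division by length because a read stands for a whole small RNA. They are shares of the counted miRNA, so fewer cells of a type and less RNA per cell cannot be told apart in this whole organ. The tissue label was checked against marker miRNAs in summed CPM. Smooth muscle stood at 155329 ± 12469 CPM (SD, n = 2), of which Mir143 held 152490.3 and Mir145a 2839. Epithelium followed at 41460.4 ± 30.7, endothelial Mir126a at 20389 ± 1732, squamous epithelium at 16628 ± 0.13 and gastric and endocrine Mir375 at 5115 ± 617. The small SDs of both epithelial sums arose because opposite changes of their genes cancelled. Squamous Mir205 (9768 ± 663) was higher in replicate 2 and Mir203 (6860 ± 663) lower. Of the epithelial genes, Mir200c (11821 ± 905) was higher in replicate 2 and Mir429 (19907 ± 932) lower. Lower sums were found for leukocytes (579 ± 27.0), erythroid cells (185 ± 47.6), striated muscle (109 ± 10.3) and liver Mir122 (61.3 ± 6.41). The leukocyte sum holds only Mir223, Mir150 and Mir155. Of the 8 striated muscle genes 5 share sequence with other precursors, so their sum lacks any multiply mapped reads and was not used to judge the tissue.

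All counts of the Mir191 and Mir378a rows lay on the strand of the miRNA gene and none on the strand of the row. The count columns carry no names, and which strand column is the row's own was inferred from the values: 350 of the 361 rows with at least 10 counts in each library had more counts in the first of them in both libraries. Each statement on strand rests on that reading. Gm24083 had 13082 counts in replicate 1 and 13259 in replicate 2, all on the strand of Mir191. With 0 counts on its own strand, up to 0.0229% of the row in replicate 1 and 0.0226% in replicate 2 could lie there unseen. Gm25301 had 30484 and 26389 counts, all on the strand of Mir378a, and the limits for its own strand were 0.00984% and 0.0114%. Mir425, read on its annotated strand, had 7759 and 8494 counts and 0 on the opposite strand, with limits of 0.0387% and 0.0353%. These limits stand for 3 counts and, like the intervals given here, cover counting error alone, since the reads carry no molecular identifiers. The tables hold no read positions, so the assignment to Mir191 and Mir378a rests on strand and annotation. The own-strand column alone would have given both miRNAs a count of 0 in both libraries.

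The same arrangement was then counted over the whole table. Of the 1973 rows, 32 overlap a miRNA gene of the opposite strand in GENCODE M21, and for none of the 32 is the overlapping gene itself among the rows counted. Of the 25 such rows with at least 10 counts in each library, the minimum for calling a row detected here, 10 had more opposite-strand than own-strand counts in both, 14 had more own-strand counts in both, and Mir3074-1 was divided, with 263 own-strand and 272 opposite-strand counts in replicate 1 and 318 and 220 in replicate 2. Of all 361 rows with 10 or more counts in both libraries, no row without such an overlap had more opposite-strand counts. Gm25301 was the highest of the 10 rows in level and Gm24083 the fifth. Together they held 43566 of 137391 opposite-strand counts of these rows in replicate 1 (31.7%) and 39648 of 127442 in replicate 2 (31.1%).

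**Figure D2:**
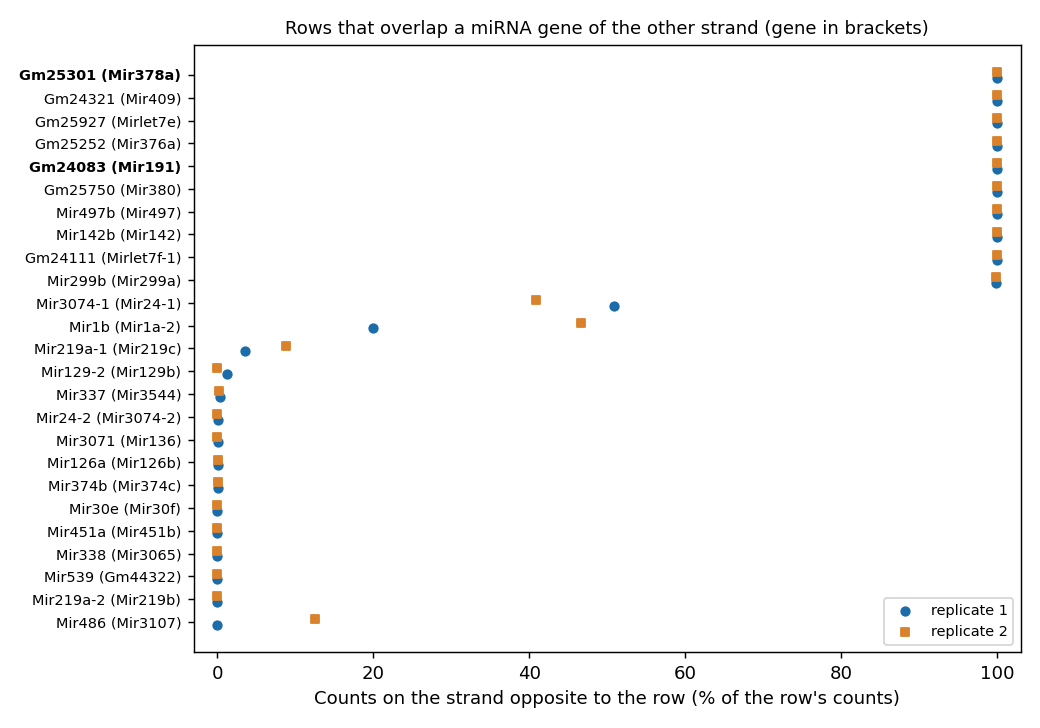
Share of each row's counts that lay on the strand opposite to the row, in percent, for the 25 detected rows that overlap a miRNA gene of the other strand (named in brackets), by replicate. Gm24083 and Gm25301, in bold, stand at 100% in both libraries, and Mir3074-1, at 50.8% and 40.9%, is the row nearest to an even division in replicate 1.

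Mir378a was the most abundant of the 3 miRNAs. Its row stood at 6091 CPM in replicate 1 (95% exact Clopper-Pearson interval 6023 to 6160) and 5639 CPM in replicate 2 (5571 to 5707), a mean of 5865 ± 319.95 CPM (SD, n = 2). It ranked 33rd of 1973 rows and made up 0.587% of gene counts. Mir191 had 2614 CPM in replicate 1 (2569 to 2659) and 2833 CPM in replicate 2 (2785 to 2882), a mean of 2724 ± 155 CPM and rank 63. Mir425 had 1550.4 CPM (1516 to 1585) and 1815 CPM (1777 to 1854), a mean of 1683 ± 187 CPM and rank 80. The order Mir378a, Mir191, Mir425 was the same in both libraries, and the ranges of the 3 rows did not overlap. Among the 361 detected rows, 32 were above Mir378a, 62 above Mir191 and 79 above Mir425.

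The cluster partners differed by less than 2-fold. The Mir191 row exceeded Mir425 by 1.69-fold in replicate 1 (95% exact interval 1.64 to 1.73) and 1.56-fold in replicate 2 (1.52 to 1.60). The log2 ratio was 0.75 and 0.64, a mean of 0.70 ± 0.079 (SD, n = 2), so Mir191 lay above its partner in both libraries by more than the spread between them. Both precursors together held 20841 counts (4164 CPM) in replicate 1 and 21753 counts (4648 CPM) in replicate 2, of which Mir191 made up 62.8% and 61.0%. Mir378a exceeded Mir191 by 2.33-fold (2.28 to 2.38) and 1.99-fold (1.95 to 2.03), a log2 ratio of 1.11 ± 0.16. It exceeded Mir425 by 3.93-fold (3.83 to 4.03) and 3.11-fold (3.03 to 3.18), a log2 ratio of 1.80 ± 0.24. With 2 libraries no exact test of these ratios over samples can pass a threshold, and differences in cloning efficiency between miRNAs, which both libraries would share, were not tested.

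The ratio of the partners was set beside all other neighbouring precursors. Between detected rows with a gap of at most 10000 bases on the strand that held their counts, 116 neighbouring pairs were found, Mir191 and Mir425 included. Their absolute log2 ratio had a median of 2.83, with quartiles of 1.27 and 4.82 and a range from 0.062 to 10.79. Mir191 and Mir425, at 0.70, had 17 pairs closer in level than themselves. Among the 70 pairs without a stretch of 20 nt shared with another precursor, to which they belong, the median was 2.39 and 13 pairs were closer. Pairs of 1 cluster share members and loci, so this is a description of where the pair stands. From replicate 1 to replicate 2 the log2 ratio of Mir191 over Mir425 differed by -0.11, against a median absolute difference of 0.19 over the 116 pairs.

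**Figure D3:**
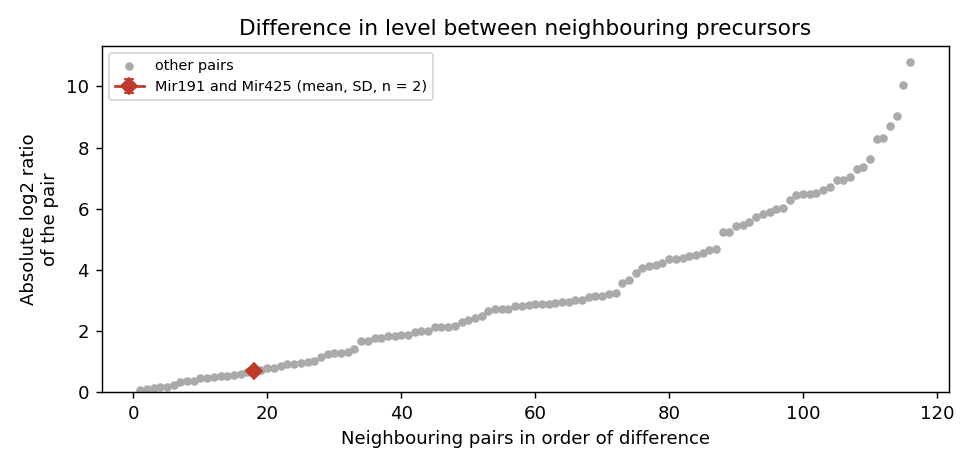
Absolute log2 ratio of the levels of neighbouring precursors (y axis), with the 116 pairs in ascending order on the x axis. The diamond marks Mir191 and Mir425 at 0.70 with its SD over 2 libraries, the 18th pair, below the median of 2.83.

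Other pairs with a member that was likewise read from an opposite-strand row showed both closer and wider levels. Mir497, a miRNA of the Mir15 and Mir16 group, and its partner Mir195a had a log2 ratio of -0.06 ± 0.0096 (SD, n = 2), the closest of all pairs. Mirlet7e and Mir125a, neighbours on chromosome 17, had 0.22 ± 0.19, and Mir99b exceeded Mirlet7e by 1.83 ± 0.029. In the imprinted cluster on chromosome 12, Mir409 exceeded Mir412 by 5.99 ± 0.16.

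Each member had rows close to it in mean level. These neighbours in level are the 2 rows next above and the 2 next below by mean CPM over 2 libraries, which says nothing of shared function. Around Mir378a stood Mir106b of the Mcm7 intron (6419 ± 434 CPM, SD, n = 2), Mir379 of the imprinted Dlk1-Dio3 region (5922 ± 749.9), Mir100 (5749 ± 238) and Gm24321 (5694 ± 405), which carries the counts of Mir409. Mir106b was apart from Mir378a by more than the larger of their SDs and the other 3 were not. Around Mir191 stood the smooth muscle miRNA Mir145a (2839 ± 73.5), Mir298 (2755 ± 280.3), Mir183 of sensory and epithelial cells (2632 ± 41.4) and Mir483 of Igf2 (2571 ± 268). Around Mir425 stood Mir139 of Pde2a (1697 ± 121), Mir337 (1696 ± 64.2), Mir101b of Rcl1 (1639 ± 158) and Mir16-1 of Dleu2 (1622 ± 94.4). Mir101b and Mir16-1 share sequence with Mir101a and Mir16-2, so their levels are uncertain. None of these 8 was apart from Mir191 or Mir425 by more than the larger SD. Since the rows were picked for closeness in level, this is a description and no test of equal level. Within the libraries, Mir106b was above Mir378a in both, Mir100 was below it in both, and Mir183 and Mir483 were below Mir191 in both. The other neighbours changed sides between the libraries.

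**Figure D4:**
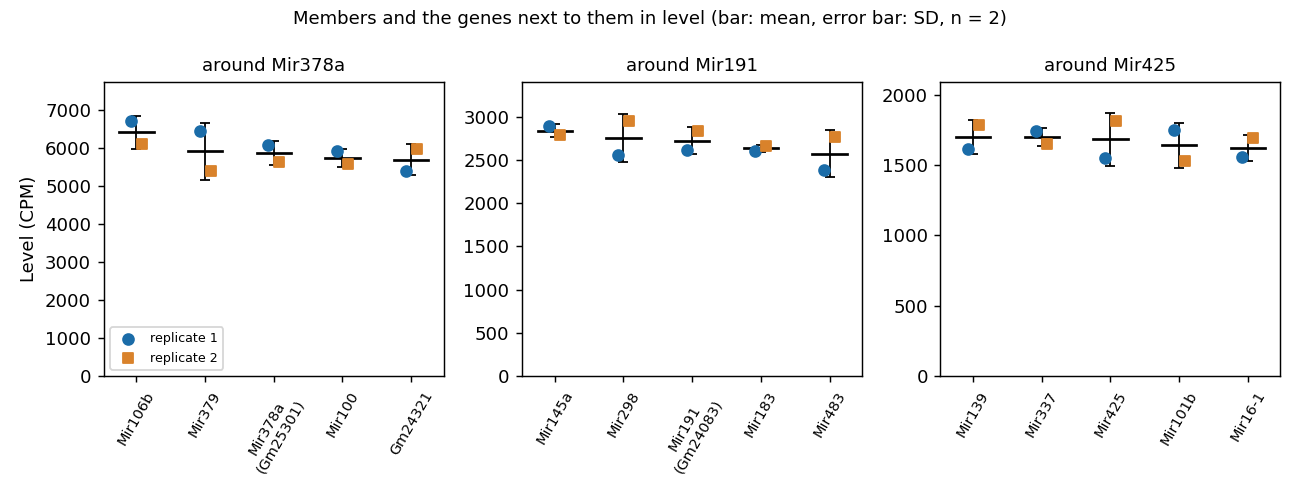
Level in CPM (y axis, from 0) of Mir378a, Mir191 and Mir425 in the middle of each panel, with the 2 rows next above and the 2 next below in mean level. Circles are replicate 1, squares replicate 2, lines the mean and error bars the SD (n = 2), and 11 of the 12 neighbours lie within the larger SD of the member's mean.

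Among the counts assigned to genes, those of the Mir378 family lay almost wholly in the Mir378a row. Mir378b had 2 counts in replicate 1 and 1 in replicate 2, Mir378c had 6 and 5, and Mir378d had 24 and 20, or 4.53 ± 0.37 CPM (SD, n = 2). The longest stretch that the Mir378a precursor shares with these was 19 nt for Mir378b, 20 nt for Mir378c and 15 nt for Mir378d. Reads that fit both Mir378a and another member, Mir378c or Mir378b, would be among those that map to several places. They would be missing from the rows, and their number was not tested. The share of Mir378a in the whole family was therefore not settled. Mir191 and Mir425 share no stretch of 20 nt with another precursor.

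Against other miRNAs of oxidative metabolism and brown fat, Mir378a was among the higher ones. Of 18 listed genes, all were among the rows counted, 11 had at least 10 counts in each library and 3 had 0 counts in both. Mir93 (6860 ± 418 CPM, SD, n = 2) and Mir106b, both of the Mcm7 intron and known in proliferation, were above Mir378a. Mir455, known from brown fat, had 3040 ± 31.1 CPM and Mir27b, a negative regulator of brown fat genes, had 2263 ± 228 CPM and shares sequence with Mir27a. Mir34a (142 ± 0.46), Mir30b (116 ± 5.76), Mir33 of the sterol regulator Srebf2 (80.3 ± 14.4), Mir155 (73.5 ± 13.0), Mir193b (32.9 ± 3.26) and Mir193a (18.1 ± 1.18) were lower. Mir365-1 and Mir365-2, which share sequence with each other, had at most 9 counts in either library, as had Mir196a-2 and Mir133b. Mir133a-1 and Mir133a-2, muscle miRNAs that share sequence with each other and with Mir133b, and Mir196a-1, which shares sequence with Mir196a-2, had 0 counts in both libraries. The counts of these 7 genes lack multiply mapped reads, so they set no limit on the level of these miRNAs.

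The libraries were then compared, to ask how steady the members are between biological replicates. Mir191 was 1.08 times as high in replicate 2 as in replicate 1, Mir425 was 1.17 times as high and Mir378a 0.926 times. The log2 ratio of replicate 2 over replicate 1 was 0.12 for Mir191 (95% interval 0.081 to 0.15, adjusted p = 3.45e-10), 0.23 for Mir425 (0.18 to 0.27, adjusted p = 9.17e-23) and -0.11 for Mir378a (-0.14 to -0.088, adjusted p = 3.09e-19) in an exact two-sided binomial test of the reads, adjusted over 361 genes by the Benjamini-Hochberg method. This test sets the reads of 2 libraries against counting noise and compares those libraries, not conditions. All 3 members passed by adjusted p, as did 42.1% of the 361 genes tested. Rows with more counts pass this test more easily, and the tested genes reach down to a minimum of 10 counts. The shares of all genes given here are therefore not matched for level. Most rows ranked as high as the members or higher also passed. None of them also had an absolute log2 ratio of at least 1, which 1.11% of the genes tested had. Mir191 and Mir425 were higher in replicate 2, as were 24.7% of tested genes by adjusted p, and Mir378a was higher in replicate 1, as were 17.5%. With DESeq2's size factors the Mir191 ratio was 0.03, with an adjusted p of 0.252 (from 3.44e-10 to 0.00108 under the other alternatives), and the split of all calls turned from 89 higher in replicate 2 and 63 higher in replicate 1 to 58 and 115. It was 74 and 94 with edgeR's TMM factors, and 74 and 92 when the 5 most abundant genes were left out of the totals.

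The differences of the members were set beside those of abundant genes. Over the 196 genes with at least 100 CPM, log2 ratios had an SD of 0.20 and a median absolute value of 0.11. Of these 196 genes, 97 had a smaller absolute ratio than Mir378a, 101 a smaller one than Mir191 and 151 a smaller one than Mir425. With totals of gene counts, Mir378a and Mir191 were thus near the middle of this spread and Mir425 above the middle. This placing depends on the scaling. With size factors the log2 ratios were -0.20 for Mir378a, 0.03 for Mir191 and 0.14 for Mir425. Of the 11 detected genes of oxidative metabolism and brown fat, 2 were higher in replicate 2 by adjusted p (24.7% of all genes tested), 4 were higher in replicate 1, Mir378a among them (17.5% of all), and 5 did not pass. Their median log2 ratio was -0.11, which is the value of Mir378a itself, beside 0.04 for all genes tested. These calls and medians also rest on totals of gene counts, and the shares of all genes tested are not matched for level.

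Mir191 and Mir425 were also set within 14 miRNAs used as references in PCR, all of them detected. By adjusted p, 8 of the 14 were higher in replicate 2 (24.7% of all genes tested), 1 was higher in replicate 1 (17.5% of all) and 5 did not pass, and none reached an absolute log2 ratio of 1. The 8 include Mir191 and Mir425 themselves, and also Mir16-1 and Mir16-2, which share sequence. Most of the list is abundant, so the shares of all genes tested are not matched to it in level. The split of the list rests on totals of gene counts. With size factors the call of Mir191 was lost, and all calls turned to 58 higher in replicate 2 and 115 higher in replicate 1. The split of the list under that scaling was not tested. The median log2 ratio of the list was 0.12, beside 0.04 for all genes tested, with a range from -0.17 for Mir186 to 0.59 for Mir103-1, which had 17 and 24 counts and shares sequence with Mir103-2 and Mir107. With totals of gene counts, Mir484 (-0.02), Mir361 (0.04), Mir25 (0.07) and Mir423 (0.10) differed less between libraries than Mir191. Mir16-1 and Mir93, both at 0.12, differed about as much, and Mir16-2 (0.22), Mir17 (0.24), Mir103-2 (0.29) and Mir106a (0.57) differed more. This order depends on the scaling. Size factors shifted every log2 ratio by -0.09, which left Mir191 at 0.03 and moved Mir484 further below its level in replicate 1. In level, Mir191 (2724 ± 155 CPM, SD, n = 2) lay below Mir423 (2953 ± 149) and above Mir361 (2348 ± 47.8) in both libraries. Both were apart from Mir191 by more than the larger SD. Mir425 (1683 ± 187) and Mir484 (1581 ± 14.1) were not apart by that measure. Mir17 of the Mir17hg transcript was the highest of the list at 20880.1 ± 2469 CPM.

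**Figure D5:**
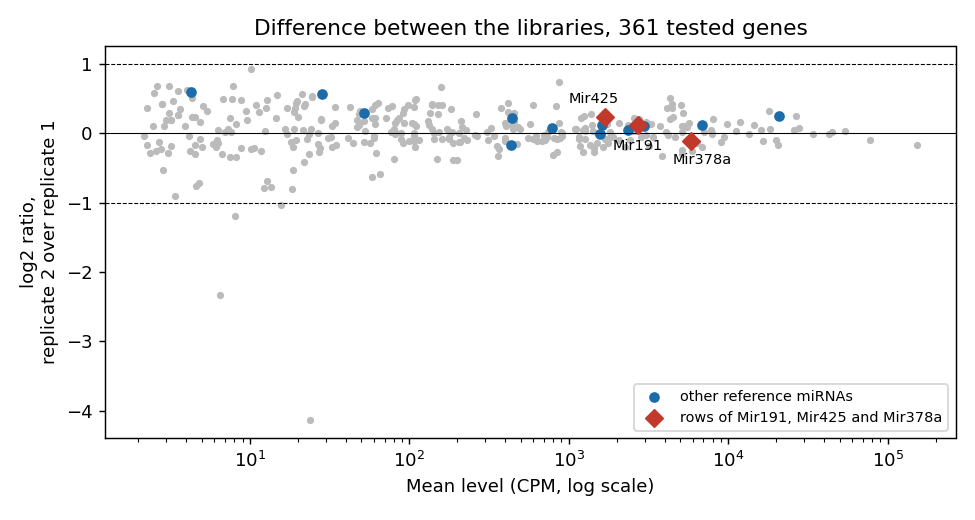
Log2 ratio of replicate 2 over replicate 1 (y axis) against mean level in CPM (x axis, log scale) for the 361 tested genes in grey, with the other reference miRNAs in blue and the rows of Mir191, Mir425 and Mir378a as diamonds. Dashed lines mark log2 ratios of -1 and 1, and the diamonds lie between -0.11 and 0.23.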

How the data were processed

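Counts are the deposited unit: whole-number counts per gene, in 1 table for each of 2 libraries. Per the text deposited with the tables, they were made on mm10 with GENCODE M4 from an alignment. For the aligner and the counter, names were not given in the sources used here. From the values, the columns for the strands add up to the both-strand column for every gene. The both-strand column was used, and the strand columns were used for the strand split. The 4 lines that name no gene were left out of totals. Of all reads, 13.0% ± 0.72 (SD, n = 2) were unmapped and 2.41% ± 0.12 lay outside genes.

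Symbols, strands and positions came from GENCODE M21 on GRCm38 (mm10) by Ensembl identifier without version (1894 of 1973 rows matched). Mature and precursor sequences came from RefSeq, GRCm38.p6, where both miRNAs of the chromosome 9 cluster matched. Libraries were compared gene by gene with a two-sided, exact conditional binomial test and Benjamini-Hochberg adjustment over genes with 10 or more counts in both (SciPy 1.17.1), called at an adjusted p under 0.05, and also with an absolute log2 ratio of at least 1. This test was checked on simulated counts with counting noise alone. That check cannot show how the test behaves under variation between biological replicates. TMM factors came from edgeR 4.0.16 and size factors from DESeq2 1.42.0. A quasi-likelihood test has no contrast with 1 group. The rows named are the members, the 2 rows next above and below each in level, members of the listed groups and the rows with opposite-strand counts. Mir489 and the neighbouring pairs named beside the members were picked after their values were seen. Members and lists were chosen with earlier results of these data known.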

Additional observations from a re-analysis of the deposited data

How the results depend on the processing

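Levels in CPM depend on the denominator. With totals without the 5 most abundant genes, Mir191 stood at 4333 CPM, Mir425 at 2675 CPM and Mir378a at 9343 CPM. With reads that map to several places added to the totals, the values were 1834, 1133 and 3948 CPM. Both changes keep the order of the 3 rows, as each divides all rows of a library by 1 number. The strand column that holds the counts gave the same levels and ratios as both strands. It could not differ, because the other strand held 0 counts in all 3 rows. Without replicate 1 or without replicate 2, the rank ran from 33 to 36 for Mir378a, from 76 to 86 for Mir425, and was 62 in either library for Mir191. This alternative for the rank was chosen after seeing the data. For the cluster partners, the log2 ratio of Mir191 over Mir425 ran from 0.64 to 0.75, and that of Mir378a over Mir191 from 0.99 to 1.22. When 1 count in each library was enough, 7 genes in place of 4 passed both thresholds between the libraries. TMM factors, size factors and totals without the 5 most abundant genes shifted every log2 ratio by -0.05, -0.09 and -0.05. The direction was kept for all 3 members under these, and the call by adjusted p was lost for Mir191 with size factors alone. Leaving out a library gives no value for the comparison between libraries. No paired analysis was possible because the labels give 1 group.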
